A study of Mus musculus with 9 samples.

Results

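Receptor tyrosine kinases outside the EGFR and Eph families were followed in LLC, a mouse Lewis lung carcinoma cell line, with and without CD47. The members were taken as a list of 36 gene symbols, and all 36 were found among the 50813 genes of the deposited count table. Polyadenylated RNA of cultured cells was sequenced in 9 libraries. WT LLC cells gave 3 libraries, CD47 KO clone E3 gave 3 and CD47 KO clone E5 gave 3. All lines were luciferase-expressing LLC cells grown in DMEM with serum, and the KO lines were each expanded from a single cell after electroporation of Cas9 with a guide against Cd47. The replicates of a line were separate biological replicates according to the study's methods. WT was 1 line and each KO was 1 clone, so that the genotype and the clone cannot be told apart.

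Receptor tyrosine kinases span the plasma membrane and bind growth factors, collagens or other ligands on the outside of the cell. Ligand binding pairs the receptors, which phosphorylate each other and recruit adaptors such as GRB2 and SHC1 that connect them to RAS, MAPK and PI3K signaling. Some members, such as PTK7, RYK and ROR2, bind WNT proteins or their co-receptors and have weak or no kinase activity. In mesenchymal tumor cells AXL, DDR2, FGFR1 and the PDGF receptors are often present, whereas KIT, FLT3 and CSF1R are best known from blood cells and KDR, FLT4, TEK and TIE1 from endothelium.

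Total counts per library ranged from 44257404 to 55095219. Values are given as CPM, the usual count scaled to a common library size after TMM scaling, and as log2 fold changes, where 1 means a doubling. Testing was by the quasi-likelihood method of edgeR, adjusted by Benjamini-Hochberg over the 14593 genes that passed a filter on low counts. A gene was called at an FDR, the adjusted p, under 0.05, and a stricter rule also asked for a change past 2-fold.

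The targeted gene was examined first. Cd47 was at 187, 179 and 182 CPM in the WT libraries, at 47.4, 36.7 and 49.6 CPM in clone E3 and at 15.5, 18.6 and 18.1 CPM in clone E5. Every KO library lay below every WT library. Its log2 fold change against WT was -2.03 (SE 0.13, edgeR quasi-likelihood adjusted p = 4.9e-06) in E3 and -3.39 (SE 0.14, edgeR quasi-likelihood adjusted p = 1.07e-07) in E5.

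Replicate 3 of clone E3 stood apart from its line. The biological coefficient of variation was 5.63% among WT libraries, 23.4% among E3 libraries and 8.36% among E5 libraries. In E3 replicate 3 the median log2 ratio to the mean of the other E3 replicates was 0.32 for genes in the shortest of 4 classes of canonical transcript length and -0.70 for those in the longest. Among the receptor genes the ratio was lowest for Met, at 0.409 with a canonical transcript of 6859 bases, for Ddr2, at 0.475 with 8590 bases, and for Insr, at 0.476 with 9385 bases. Fgfr1 had a ratio of 0.958 with 6139 bases, and Flt3 had the highest, 1.34 with 3658 bases. Ratios were taken after adding 0.5 CPM, which exceeds the level of Flt3 in every E3 library, so that its ratio is drawn towards 1. The part of transcript length in the results was not tested, and values without E3 replicate 3 are given for several members.

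The labelled cell type was compared with 5 marker lists. Among 12 leukocyte markers, 8 had at most 3 counts in every library, and the sum of the list was 14.4 to 15.2 CPM in WT, 12.5 to 17.1 CPM in E3 and 23.5 to 24.7 CPM in E5. Its most abundant gene was Cd14, while C1qa and Cd52 were at 0 in every library. Among 12 endothelial markers the sum was 80.8 to 88.2 CPM in WT, 107 to 116 CPM in E3 and 57.3 to 58.8 CPM in E5 and came mostly from Eng, with Emcn, Cldn5, Erg and Sox17 at 0 throughout. Among 12 epithelial markers the sum was 451 to 459 CPM in WT, 128 to 199 CPM in E3 and 898 to 958 CPM in E5. The most abundant of them was Krt18, and Epcam was at 0 in every library. Among 10 alveolar markers Nkx2-1, Sftpa1, Sftpb, Sftpc and Slc34a2 were at 0 throughout, and Abca3 led a sum of 38.6 to 70.7 CPM. Among 12 fibroblast and mesenchymal markers the sum was 7343 to 7687 CPM in WT, 9329 to 10801 CPM in E3 and 9986 to 10942 CPM in E5. Vim was the most abundant of these, while Thy1 and Postn were at 0 in every library. Of the 10 fibroblast markers tested, 6 were called higher and 1 lower in E3 (median log2 fold change 0.60), and 2 higher and 3 lower in E5 (median -0.32). Between the clones 0 were higher in E5 and 5 lower (median -1.20), and without E3 replicate 3 these counts were 2 and 6, in a fit that called 6555 of 14867 genes. Over all genes tested, 30.5% were called in E3, 20.6% in E5 and 31.9% between the clones. Of 3 endothelial markers tested, 0 were higher in E5 than in E3 and 1 lower (median -1.14), and of 5 epithelial markers tested, 3 were higher and 0 lower (median 2.16). Of the 10 alveolar markers, 5 thus had no count in any line and 3 were tested. Of these 3, 0 were called in E3, while 1 was called higher and 1 lower in E5 and likewise between the clones. The part of the marker lists in the results was not tested.

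Of the 36 receptor genes, 17 passed the filter and 19 did not. Kit, Ros1 and Tie1 had no count in any library, and 8 others had at most 3 counts in every library: Fgfr4, Ntrk2, Musk, Csf1r, Ret, Alk, Ntrk3 and Flt4. A count of 0 allows up to 3 counts, or between 0.0555 and 0.0659 CPM depending on the library, and such limits cover counting error only. The remaining 8 genes, Mst1r, Tek, Ltk, Aatk, Fgfr2, Kdr, Fgfr3 and Ror1, reached more than 3 counts in at least 1 library. Ror1 reached the highest of these, with 15 counts in E3 replicate 1 and 26 counts over all 9 libraries. Expression of these 19 genes was thus at or near the detection limit. With no filter on low counts, Ror1 was the only one of them called, between the clones (edgeR quasi-likelihood adjusted p = 0.00635), with no count in E5. No fold is given for these genes.

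Levels between genes were compared per length, as mean CPM per kb of annotated exon. In WT cells Ddr2, a receptor for fibrillar collagen, was at 72.8 ± 3.42 CPM per kb (SD, n = 3). Axl, the receptor of the TAM class that binds GAS6, was at 63.3 ± 6.69 CPM per kb (SD, n = 3). Fgfr1, a receptor for fibroblast growth factors, was at 41.2 ± 1.13 CPM per kb (SD, n = 3). These 3 genes made up 70.2% of the summed level of the 36 genes in WT cells, 63.5% in clone E3 and 69.6% in clone E5. Their order depended on the length used, since with the longest annotated transcript in WT cells Axl was at 125 CPM per kb, Fgfr1 at 85.7 CPM per kb and Ddr2 at 78.5 CPM per kb. The HGF receptor gene Met followed at 13.9 ± 1.92 CPM per kb (SD, n = 3) in WT cells and Ptk7 at 11.0 ± 0.828 CPM per kb (SD, n = 3). With the longest transcript Ryk, at 17.2 CPM per kb, and Ptk7, at 16.8 CPM per kb, stood above Met, at 15.6 CPM per kb. At the low end of the tested genes in WT cells were Flt3, at 0.286 ± 0.0595 CPM per kb (SD, n = 3), and Pdgfrb, at 0.163 ± 0.0154 CPM per kb (SD, n = 3). In clone E3 the order at this end was the other way round, with Pdgfrb at 0.686 ± 0.146 CPM per kb (SD, n = 3) and Flt3 at 0.0317 ± 0.0194 CPM per kb (SD, n = 3).

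**Figure D1:**
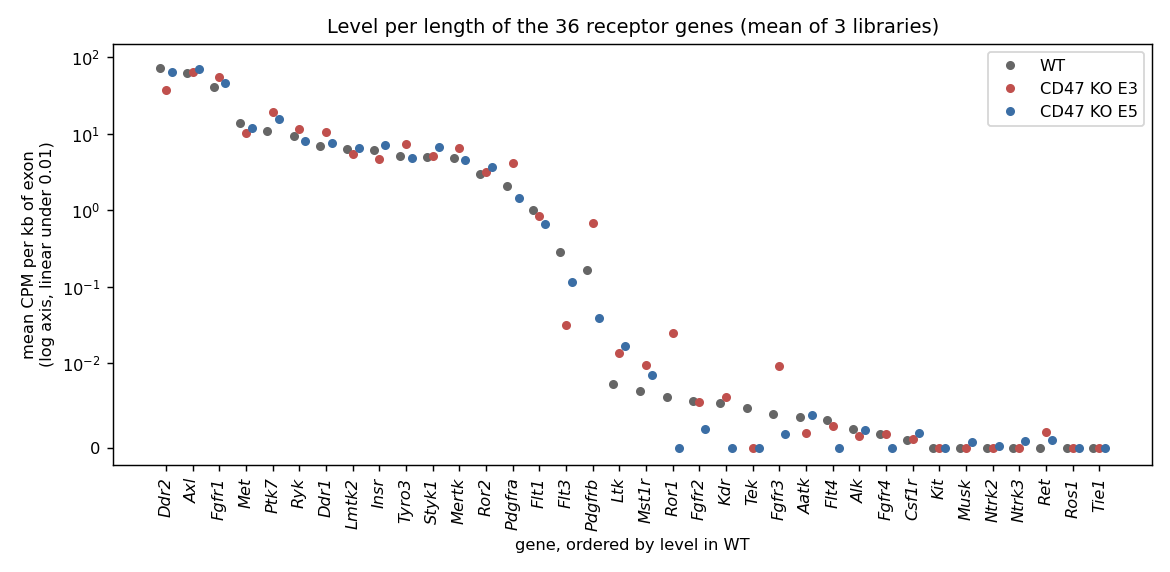
Mean CPM per kb of exon (vertical axis, logarithmic and linear under 0.01) of the 36 receptor genes (horizontal axis, ordered by level in WT) in WT cells, clone E3 and clone E5, each point the mean of 3 libraries. The 17 tested genes lie to the left, led in WT by Ddr2 at 72.8 and Axl at 63.3, and the 19 untested genes lie near 0.

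Clone E3 was compared with WT to ask which receptor genes differed in that KO line. Of the 17 tested members, 9 were called (7 higher and 2 lower), against a background of 30.5% of the 14593 genes tested, of which 15.7% were higher and 14.7% lower. The higher members were Pdgfrb, Pdgfra, Ptk7, Ddr1, Tyro3, Fgfr1 and Ryk, and the lower ones were Flt3 and Ddr2. Past 2-fold there were 2, Pdgfrb and Flt3, with a background of 9.82%. The 3 libraries of E3 did not overlap with those of WT for 10 members, with a background of 45.4%. The members' median log2 fold change was 0.07, beside 0.01 over all genes tested, and their median absolute log2 fold change was 0.44, beside 0.31. Without E3 replicate 3, 10 members were called, Mertk in addition, and 3 passed 2-fold, Pdgfra in addition. In that fit 6423 of 14867 genes were called, in place of 4445 of 14593. With upper-quartile scaling, 60.9% of the called genes were higher in E3, beside 51.7% with TMM scaling.

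Clone E5 was compared with WT in the same fit, with the same WT libraries. Of the 17 tested members, 4 were called (2 higher and 2 lower), with a background of 20.6%, of which 8.96% were higher and 11.7% lower. Ptk7 and Styk1 were higher, and Pdgfrb and Flt3 were lower. Past 2-fold there were 2, Pdgfrb and Flt3, with a background of 8.21%. The libraries did not overlap for 9 members, with a background of 55.4%. The members' median log2 fold change was -0.08, beside -0.00 over all genes tested, and their median absolute log2 fold change was 0.21, beside 0.25. Without E3 replicate 3, which enters the shared estimate of the spread, 8 members were called, with Pdgfra, Flt1 and Ryk lower and Ror2 higher in addition, and 6246 of 14867 genes in place of 3012 of 14593. Leaving out WT replicate 1 or 2 or E5 replicate 1 or 2 gave 2 members each, with 1953, 1767, 1915 and 1830 genes called.

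The clones were compared with each other to ask where the KO lines differed. Here 10 of the 17 members were called (3 higher in E5 and 7 lower), with a background of 31.9%, of which 14.7% were higher and 17.2% lower. Past 2-fold there were 3, Pdgfrb, Pdgfra and Flt3, with a background of 11.0%. The libraries did not overlap for 11 members, with a background of 44.6%. With upper-quartile scaling, 35.8% of the called genes were higher in E5, beside 46.1% with TMM scaling. With E3 replicate 3 left out, 13 members were called, Fgfr1, Flt1 and Insr in addition, and 6555 of 14867 genes in place of 4661 of 14593. The count was 6 members without E5 replicate 2, with only the 2 lines compared or with the replicate number as a block. These fits called 3235, 3122 and 3887 genes. The members' median log2 fold change was -0.25, beside -0.01 over all genes tested, and their median absolute log2 fold change was 0.47, beside 0.32. The list itself was not tested in any of the 3 comparisons, and nothing particular to these receptors is read from the counts.

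**Figure D2:**
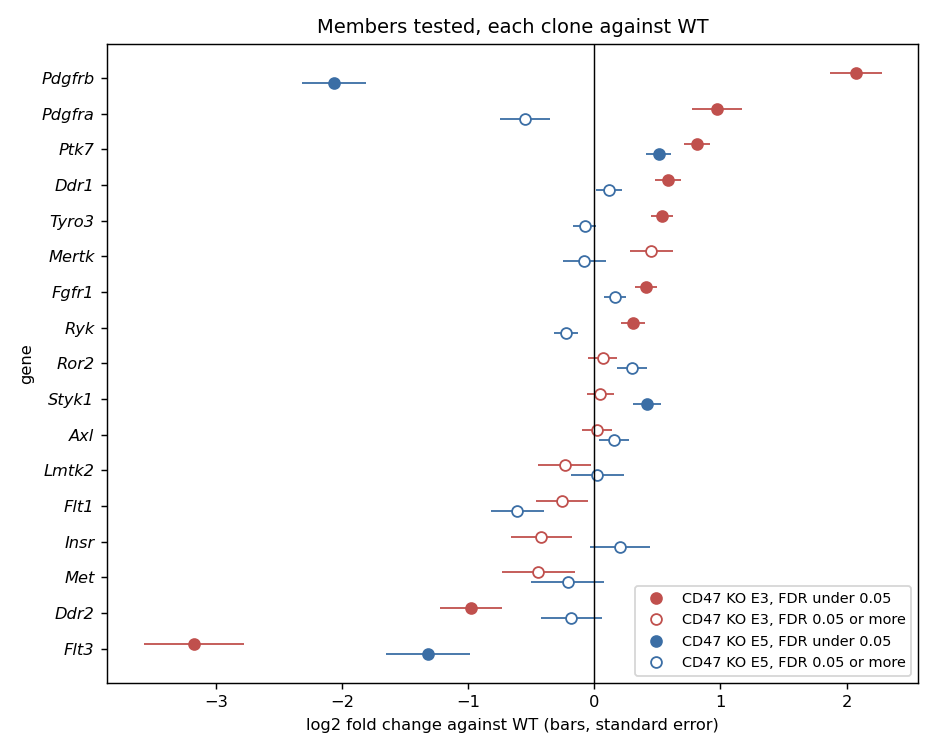
Log2 fold change against WT (horizontal axis; bars, standard error) of the 17 receptor genes tested (vertical axis) in clones E3 and E5, each from 3 libraries against the same 3 WT libraries. Filled points have an FDR under 0.05, and Pdgfrb lies at 2.07 in E3 and at -2.07 in E5.

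The PDGF receptor class held the members with the largest differences. Pdgfrb (ENSMUSG00000024620.13, GRCm39 chromosome 18, 61178222 to 61218133, plus strand) encodes the receptor for PDGF-BB and PDGF-DD, known from pericytes and fibroblasts. It was at 1.30, 1.45 and 1.20 CPM in the WT libraries, at 6.11, 6.36 and 4.20 CPM in E3 and at 0.345, 0.238 and 0.351 CPM in E5. All E3 libraries were above all WT libraries and all E5 libraries below them, with no overlap between any lines. Against WT the log2 fold change was 2.07 (SE 0.20, edgeR quasi-likelihood adjusted p = 6.91e-05) in E3 and -2.07 (SE 0.26, edgeR quasi-likelihood adjusted p = 0.000274) in E5. Between the clones it was -4.14 (SE 0.24, edgeR quasi-likelihood adjusted p = 8.95e-07), a 17.6-fold lower level in E5. The E5 libraries held 16, 11 and 19 counts of the gene, so that the level in E5 is set by few counts. In bulk RNA, fewer cells that express a gene and less RNA per cell cannot be told apart, and this holds for every gene described here.

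Pdgfra (ENSMUSG00000029231.16, chromosome 5, 75312953 to 75358876, plus strand) encodes the PDGF receptor alpha, which also binds PDGF-AA and PDGF-CC. It was at 30.3, 23.5 and 23.8 CPM in WT, at 66.6, 49.1 and 36.4 CPM in E3 and at 17.4, 16.3 and 19.4 CPM in E5. The lines did not overlap, and E3 replicate 3 was the lowest of the E3 libraries. The log2 fold change was 0.97 (SE 0.20, edgeR quasi-likelihood adjusted p = 0.00431) in E3 and 1.16 without E3 replicate 3. In E5 it was -0.55 (SE 0.20, edgeR quasi-likelihood adjusted p = 0.0765), which missed the threshold. It passed in 6 alternatives: DESeq2, limma voom, no filter on low counts, only the 2 lines compared, without E3 replicate 1 and without E3 replicate 3 (edgeR quasi-likelihood adjusted p = 0.00479). The difference between the clones was -1.52 (SE 0.20, edgeR quasi-likelihood adjusted p = 0.000304). Pdgfra overlaps 1 annotated gene on its own strand and 2 on the other, and Flt3, Fgfr1, Flt1, Insr, Mertk, Ddr1, Ddr2, Ryk, Ror2 and Lmtk2 also overlap other annotated genes. Since the strand setting of the counting is not given, reads shared with such genes could not be separated.

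Flt3 (ENSMUSG00000042817.16, chromosome 5, 147267551 to 147337299, minus strand) encodes the receptor for FLT3 ligand, known from blood progenitor cells. It was at 2.28, 1.79 and 1.52 CPM in WT, at 0.140, 0.127 and 0.352 CPM in E3 and at 0.582, 0.585 and 1.05 CPM in E5. Every E3 library was below every E5 library, and every E5 library was below every WT library. In log2 terms the change was -3.18 (SE 0.40, edgeR quasi-likelihood adjusted p = 0.00029) in E3, or -3.78 without E3 replicate 3, and -1.32 (SE 0.33, edgeR quasi-likelihood adjusted p = 0.0187) in E5. It was thus called lower in each clone, against the same WT libraries. The difference between the clones was 1.86 (SE 0.42, edgeR quasi-likelihood adjusted p = 0.00744), or 2.47 without that library. Its E3 libraries held 7, 6 and 16 counts, so the gene passed the filter through the other lines. The E5 call was lost when E5 replicate 1 (log2 fold change -1.18), E5 replicate 2 (-1.18), WT replicate 1 (-1.15) or WT replicate 2 (-1.35) was left out. Of the leukocyte markers, Ptprc, Adgre1 and Itgam were at mean levels of at most 0.0207 CPM in any line. The list as a whole summed to more than Flt3 in every library, through Cd14, and of its 3 tested genes Cd14 was called higher and Lyz2 lower in E5. Their part in the Flt3 result was not tested.

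**Figure D3:**
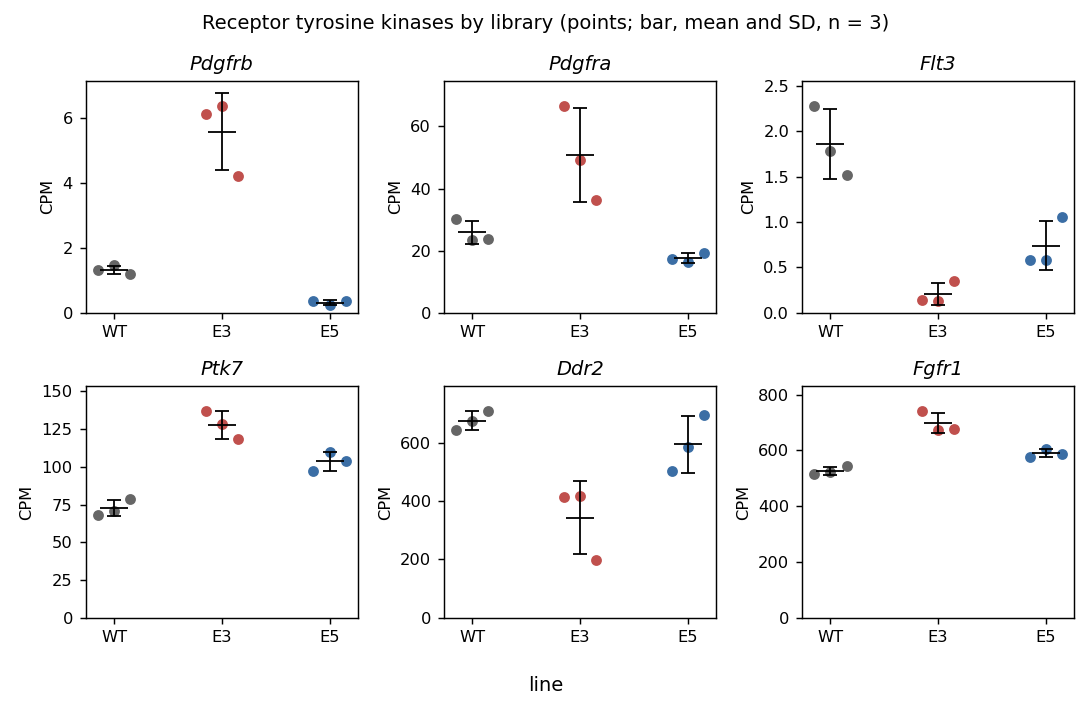
CPM (vertical axis) of 6 receptor genes in each library of WT, clone E3 and clone E5 (horizontal axis); points are libraries and bars the mean and SD of 3. Pdgfrb is highest in E3 at 4.20 to 6.36 and lowest in E5 at 0.238 to 0.351, while Flt3 is highest in WT at 1.52 to 2.28.

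Kit and Csf1r, the other members of this class, did not pass the filter, with no count of Kit and 4 counts of Csf1r in all 9 libraries. Their ligands were nevertheless well expressed in the same cells: Kitl averaged 195 CPM in WT, 158 CPM in E3 and 153 CPM in E5, and Csf1 averaged 197 CPM in WT, 137 CPM in E3 and 176 CPM in E5. Csf1 was called lower in E3 (log2 fold change -0.52) and Kitl was not called. These 2 ligands were singled out after their values were seen, and their values were not followed through the alternatives.

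The VEGF receptor gene Flt1 was the expressed gene of its class, at 12.4, 13.6 and 14.9 CPM in WT, at 12.9, 13.7 and 7.63 CPM in E3 and at 10.0, 9.52 and 7.28 CPM in E5. The E5 libraries lay below those of WT, and the log2 fold change was -0.61 (edgeR quasi-likelihood adjusted p = 0.0644). Leaving out E3 replicate 3 it was -0.61 and passed the threshold (edgeR quasi-likelihood adjusted p = 0.00169). It passed in 6 alternatives in all, the others being DESeq2, limma voom, no filter on low counts, upper-quartile scaling and only the 2 lines compared. In E3 it was -0.26, or -0.04 without E3 replicate 3 and -0.41 without E3 replicate 2. Between the clones it was -0.35 (edgeR quasi-likelihood adjusted p = 0.228). There it was -0.57 without E3 replicate 3 (edgeR quasi-likelihood adjusted p = 0.00445) and -0.20 without E3 replicate 2. Kdr, Flt4, Tek and Tie1 were at or near 0.

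Among FGF receptors Fgfr1 was at 516, 521 and 543 CPM in WT, 741, 675 and 678 CPM in E3 and 575, 604 and 588 CPM in E5. The log2 fold change was 0.41 (SE 0.09, edgeR quasi-likelihood adjusted p = 0.00587) in E3 and 0.16 (SE 0.09, edgeR quasi-likelihood adjusted p = 0.229) in E5. The libraries of each clone were above those of WT, although only E3 passed the edgeR test with all lines fitted. With limma voom or with only the 2 lines compared, E5 was called as well. Between the clones the log2 fold change was -0.25 (edgeR quasi-likelihood adjusted p = 0.054), which missed the threshold. It passed in 5 alternatives: DESeq2, limma voom, upper-quartile scaling, a stricter filter and without E3 replicate 3 (edgeR quasi-likelihood adjusted p = 0.0108).

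Met, the HGF receptor gene, was at 90.2 to 118 CPM in WT, 39.9 to 111 CPM in E3 and 81.2 to 105 CPM in E5 and was not called by edgeR in any comparison, while limma voom called it in E5. In E3 its log2 fold change was -0.44, or -0.13 without E3 replicate 3 and -0.78 without E3 replicate 2. In the TAM class, whose receptors bind GAS6 and PROS1, Tyro3 was at 34.3 ± 1.63 CPM (SD, n = 3) in WT and 49.7 ± 2.92 CPM (SD, n = 3) in E3, a log2 fold change of 0.53 (edgeR quasi-likelihood adjusted p = 0.00146). Axl was at 513 to 632 CPM in WT, 512 to 640 CPM in E3 and 629 to 681 CPM in E5, and it was not called by edgeR in any comparison, while limma voom called it in E5. Mertk was at 21.3 to 25.0 CPM in WT and 23.1 to 39.3 CPM in E3, and its log2 fold change of 0.45 missed the threshold (edgeR quasi-likelihood adjusted p = 0.0681), while without E3 replicate 3 it was 0.63 (edgeR quasi-likelihood adjusted p = 0.000282) and without E3 replicate 1 it was 0.27 (edgeR quasi-likelihood adjusted p = 0.233). The insulin receptor gene Insr was at 83.2 to 86.9 CPM in WT, 36.7 to 80.8 CPM in E3 and 85.4 to 113 CPM in E5, with E3 replicate 3 the lowest. In E3 its log2 fold change was -0.42 (edgeR quasi-likelihood adjusted p = 0.216) and -0.14 without E3 replicate 3. Between the clones it was 0.62 (edgeR quasi-likelihood adjusted p = 0.0727), and 0.35 without that library, where it passed the threshold (edgeR quasi-likelihood adjusted p = 0.0121), as it did in 5 alternatives in all.

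The collagen receptor genes moved in opposite directions in clone E3. Ddr2 was at 645, 674 and 709 CPM in WT, at 414, 419 and 198 CPM in E3 and at 503, 585 and 696 CPM in E5. All E3 libraries were below all other libraries, with replicate 3 the lowest. The log2 fold change in E3 was -0.98 (SE 0.25, edgeR quasi-likelihood adjusted p = 0.0129) and -0.70 without E3 replicate 3. Ddr1, a collagen receptor gene known from epithelial cells, was at 38.4 to 44.8 CPM in WT and 58.6 to 67.4 CPM in E3, a log2 fold change of 0.59 (edgeR quasi-likelihood adjusted p = 0.00193). Neither gene was called by edgeR in E5 against WT, while limma voom called both.

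Among receptors that take part in WNT signaling, Ptk7 was called higher in each clone, against the same WT libraries. It was at 68.4, 70.9 and 79.0 CPM in WT, at 137, 129 and 118 CPM in E3 and at 97.2, 110 and 104 CPM in E5. All KO libraries were above all WT libraries, and E3 was above E5. For Ptk7 the log2 fold change was 0.81 (SE 0.10, edgeR quasi-likelihood adjusted p = 0.000262) in E3 and 0.51 (SE 0.10, edgeR quasi-likelihood adjusted p = 0.00487) in E5. Ryk was at 123 to 135 CPM in WT, 151 to 176 CPM in E3 and 108 to 114 CPM in E5. Its log2 fold change in E3 of 0.30 (edgeR quasi-likelihood adjusted p = 0.0337) lost its call without any 1 WT or E5 library, with no filter on low counts, with only the 2 lines compared or with the replicate number as a block. Ror2 was at 13.5 to 14.6 CPM in WT, 12.9 to 16.7 CPM in E3 and 15.8 to 17.6 CPM in E5. Its E5 libraries lay above those of WT, with a log2 fold change of 0.30 (edgeR quasi-likelihood adjusted p = 0.101) that passed the threshold in 3 alternatives, and its difference between the clones passed in 1. Of the remaining members, Styk1 was at 28.5 to 30.8 CPM in WT and 34.4 to 45.0 CPM in E5, a log2 fold change of 0.42 (edgeR quasi-likelihood adjusted p = 0.0223), and that call was lost without E5 replicate 1 or 2 or without any WT library. Lmtk2 was at 48.4 to 55.1 CPM in WT, 27.4 to 57.6 CPM in E3 and 52.5 to 54.0 CPM in E5 and was not called.

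The tested genes around the members with the largest changes were examined within 1 Mb on each side. Around Pdgfrb, 21 tested genes had a median log2 fold change of -0.04 in E3, with 3 called higher and 8 lower, and of -0.02 in E5, with 1 higher and 1 lower. Between the clones 7 of them were called higher in E5 and 1 lower, while Pdgfrb itself was lower. Around Pdgfra, 7 tested genes had -0.16 in E3, with 1 higher and 1 lower, and -0.32 in E5, with 0 higher and 4 lower. Between the clones 0 of these 7 were called higher in E5 and 3 lower (median -0.23). Around Flt3, 16 had -0.05 in E3 and -0.01 in E5, with 1 higher and 2 lower in each. Over all genes tested, 15.7% were called higher and 14.7% lower in E3, and 8.96% higher and 11.7% lower in E5. Between the clones the shares were 14.7% and 17.2%. No list of neighbours was tested.

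Promoters are shown for Pdgfra, Flt3 and Ptk7, 2 of the 3 members that passed 2-fold and the member called higher in both clones. Each is the 250 bases before the canonical GENCODE start on the GRCm39 genome, read on the strand of the gene, with CG dinucleotides in capitals. Pdgfra lies at chr5:75312672-75312921 on the plus strand, Flt3 at chr5:147337301-147337550 on the minus strand and Ptk7 at chr17:46940447-46940696 on the minus strand.
Pdgfra: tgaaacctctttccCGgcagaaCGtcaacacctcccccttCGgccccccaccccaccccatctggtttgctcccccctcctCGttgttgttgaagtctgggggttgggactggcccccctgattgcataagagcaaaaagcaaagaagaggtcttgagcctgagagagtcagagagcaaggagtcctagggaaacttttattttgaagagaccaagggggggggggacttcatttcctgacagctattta
Flt3: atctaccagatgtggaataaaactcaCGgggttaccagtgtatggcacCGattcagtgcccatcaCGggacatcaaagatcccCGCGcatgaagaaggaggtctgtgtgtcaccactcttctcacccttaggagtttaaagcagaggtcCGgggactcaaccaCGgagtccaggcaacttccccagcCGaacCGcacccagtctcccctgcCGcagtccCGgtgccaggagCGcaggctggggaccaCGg
Ptk7: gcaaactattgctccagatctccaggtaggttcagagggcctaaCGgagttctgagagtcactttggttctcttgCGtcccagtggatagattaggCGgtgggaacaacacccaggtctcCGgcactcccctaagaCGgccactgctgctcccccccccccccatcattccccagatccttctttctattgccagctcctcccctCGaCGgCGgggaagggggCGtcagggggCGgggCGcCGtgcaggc
The Pdgfra window held 4 CG dinucleotides, that of Flt3 13 and that of Ptk7 12, with a median of 8 over the windows of 21493 protein-coding genes. Searched on both strands, TATAAA was found in none of the 3 windows and in 11.9% of all windows, CCAAT in none of the 3 and in 36.5% of all, and TGANTCA in none of the 3 and in 6.18% of all. GGGCGG was found in the Ptk7 window only among the 3 and in 36.3% of all windows. These are matches of letters, and nothing about binding was measured.

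Ligands of the receptors were taken as a list of 49 genes, of which 32 were tested. Over all genes tested, 30.5% were called in E3 and 20.6% in E5, which is the background for this and the following lists. In E3, 11 ligands were called higher and 13 lower, with a median log2 fold change of 0.28 beside 0.01 over all genes tested. In E5, 5 were called higher and 8 lower, with a median of -0.23 beside -0.00. Without E3 replicate 3, 12 were higher and 12 lower in E3, and 8 higher and 12 lower in E5. That fit called 6423 of 14867 genes in E3 and 6246 in E5, which is the background for the counts of lists without that library.

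For the PDGF receptors, Pdgfa was at 14.3 to 15.4 CPM in WT, at 17.7, 18.6 and 31.4 CPM in E3 and at 7.57 to 9.63 CPM in E5. E3 was above WT and E5 below, with replicate 3 of E3 far above its fellows. The log2 fold change was 0.60 (edgeR quasi-likelihood adjusted p = 0.0445) in E3 and -0.82 (edgeR quasi-likelihood adjusted p = 0.0177) in E5. In E3 it was 0.29 without E3 replicate 3 (edgeR quasi-likelihood adjusted p = 0.042), and the E3 call was lost without any 1 WT or E5 library, with only the 2 lines compared or with the replicate number as a block. The E5 call was lost without WT replicate 1 or 3 or E5 replicate 2 or 3. Pdgfc was at 44.2, 44.3 and 44.2 CPM in WT, 56.0, 58.8 and 51.0 CPM in E3 and 103, 106 and 110 CPM in E5. Both clones lay above WT, with log2 fold changes of 0.32 (edgeR quasi-likelihood adjusted p = 0.0183) in E3, lost without any 1 WT library, with no filter on low counts or with the replicate number as a block, and 1.27 (edgeR quasi-likelihood adjusted p = 5.1e-06) in E5. Pdgfb and Pdgfd, which bind PDGFRB, had at most 3 counts in every library.

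Flt3l, the ligand gene of FLT3, was at 9.15, 8.18 and 7.57 CPM in WT, 5.54, 4.12 and 6.22 CPM in E3 and 3.36, 3.25 and 5.49 CPM in E5. Each clone lay below WT. For Flt3l the log2 fold change was -0.65 (edgeR quasi-likelihood adjusted p = 0.0457) in E3 and -1.04 (edgeR quasi-likelihood adjusted p = 0.00801) in E5. The E3 call was lost without any 1 WT library, E3 replicate 1 or 2, or E5 replicate 1, with upper-quartile scaling and with a stricter filter.

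The other ligands that the naming rule picked were Ptn, Mst1, Wnt5a and Fgf21. Ptn, which encodes pleiotrophin, a ligand proposed for ALK, was at 29.3, 28.0 and 28.2 CPM in WT and at 50.9, 36.4 and 64.7 CPM in E3, a log2 fold change of 0.83 (edgeR quasi-likelihood adjusted p = 0.00577). In E5 it had 3, 1 and 2 counts, and its level there was at the detection limit. Mst1, the ligand gene of the untested receptor Mst1r, had a log2 fold change of -2.72 (edgeR quasi-likelihood adjusted p = 6.15e-05) in E3 and -1.13 (edgeR quasi-likelihood adjusted p = 0.00705) in E5. Wnt5a, a ligand of ROR2 and RYK, was at 1.96 to 2.55 CPM in WT, 10.7 to 16.7 CPM in E3 and 5.73 to 7.19 CPM in E5. Its log2 fold change was 2.69 (edgeR quasi-likelihood adjusted p = 1.49e-05) in E3 and 1.57 (edgeR quasi-likelihood adjusted p = 0.000308) in E5. Fgf21 had a log2 fold change of -2.62 (edgeR quasi-likelihood adjusted p = 0.00296) in E3, where replicate 2 held 5 counts, and -0.99 (edgeR quasi-likelihood adjusted p = 0.148) in E5, which passed without E3 replicate 2 (edgeR quasi-likelihood adjusted p = 0.0105) or E3 replicate 3 (edgeR quasi-likelihood adjusted p = 0.0462), with limma voom, with only the 2 lines compared and with no filter on low counts.

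**Figure D4:**
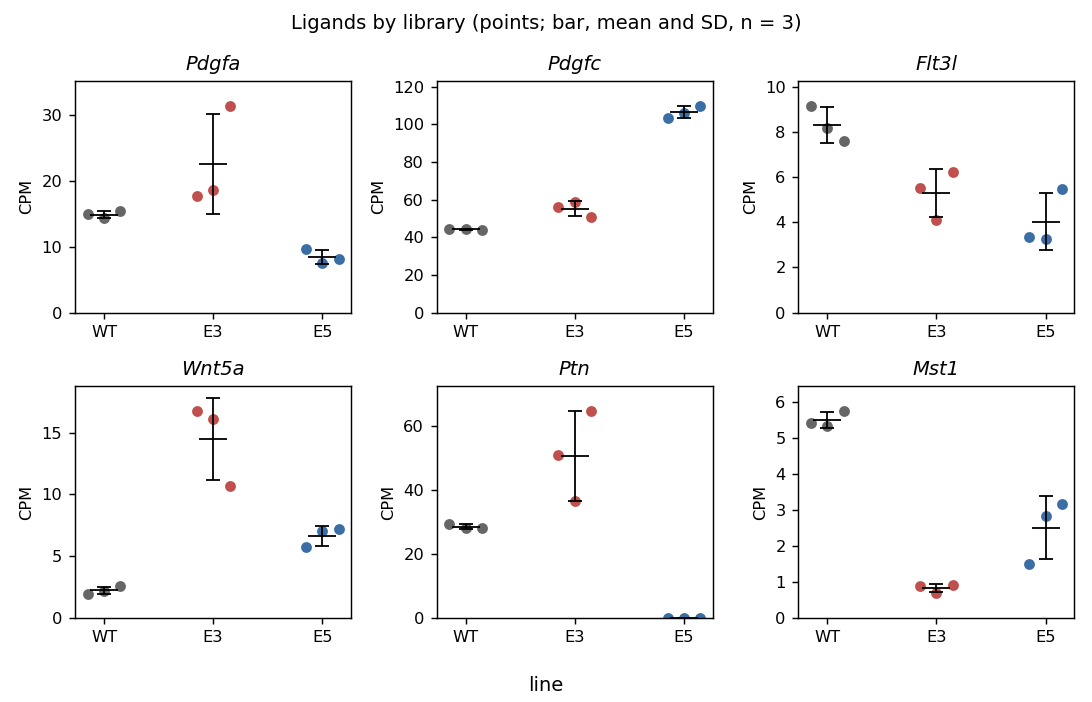
CPM (vertical axis) of 6 ligand genes in each library of WT, clone E3 and clone E5 (horizontal axis); points are libraries and bars the mean and SD of 3. Pdgfc is highest in E5 at 103 to 110, Wnt5a is highest in E3 at 10.7 to 16.7, and Ptn is near 0 in E5.

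Coreceptors were a list of 25 genes, of which 16 were tested. In E3, 5 were called higher and 1 lower, with a median log2 fold change of 0.19, and in E5, 3 were higher and 4 lower, with a median of -0.04. Without E3 replicate 3, 6 coreceptors were higher and 5 lower in E5, in a fit that called 6246 of 14867 genes. Nrp1, a coreceptor for VEGF, had a log2 fold change of 1.49 (edgeR quasi-likelihood adjusted p = 0.00395) in E3. In E5 Nrp1 had 0.63 (edgeR quasi-likelihood adjusted p = 0.162), which passed with limma voom, with only the 2 lines compared and without E3 replicate 3. Lrp4, the agrin receptor partner of MUSK, had 1.62 (edgeR quasi-likelihood adjusted p = 0.00668) in E5, and its E3 value of 1.11 (edgeR quasi-likelihood adjusted p = 0.0313) lost its call without any 1 WT library or E3 replicate 1 or 2, with only the 2 lines compared or with the replicate number as a block. Sort1, which encodes the neurotrophin partner sortilin, had 1.07 (edgeR quasi-likelihood adjusted p = 0.00152) in E3 and -0.29 (edgeR quasi-likelihood adjusted p = 0.312) in E5. Itgb4, which encodes an integrin that can pair with MET, had -0.85 (edgeR quasi-likelihood adjusted p = 0.0198) in E5 and lost its call without WT replicate 1 or 2 or E5 replicate 1 or 3. In E3 Itgb4 had 0.26 (edgeR quasi-likelihood adjusted p = 0.382).

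Adaptors and effectors were a list of 39 genes, of which 36 were tested. In E3, 6 were called higher and 5 lower, with a median log2 fold change of -0.01, and in E5, 2 were higher and 2 lower, with a median of -0.15. In the fit without E3 replicate 3, 10 were higher and 8 lower in E3, with 6423 of 14867 genes called, and 9 higher and 13 lower in E5, with 6246 genes called. Fyn, a SRC family kinase gene, was at 131 to 140 CPM in WT, 33.3 to 39.8 CPM in E3 and 36.1 to 58.2 CPM in E5. Its log2 fold change was -1.92 (edgeR quasi-likelihood adjusted p = 2.66e-05) in E3 and -1.50 (edgeR quasi-likelihood adjusted p = 9.08e-05) in E5. Grb14, an adaptor gene of the insulin receptor, had 1.49 (edgeR quasi-likelihood adjusted p = 0.000309) in E3 and 1.07 (edgeR quasi-likelihood adjusted p = 0.00279) in E5. Plcg2, a phospholipase gene, had 1.27 (edgeR quasi-likelihood adjusted p = 0.000471) in E3 and -0.65 (edgeR quasi-likelihood adjusted p = 0.026) in E5, the latter lost without any WT library or without E5 replicate 1 or 3. Shc4 had 1.03 (edgeR quasi-likelihood adjusted p = 0.00137) in E3. In E5 Shc4 had 0.31 (edgeR quasi-likelihood adjusted p = 0.228), which passed with limma voom and with only the 2 lines compared.

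Attenuators of receptor signaling were a list of 25 genes, of which 21 were tested. In E3, 2 were called higher and 5 lower, with a median log2 fold change of -0.20, and in E5, 3 were higher and 2 lower, with a median of 0.07. Leaving out E3 replicate 3, 6 were higher and 5 lower in E3, with 6423 of 14867 genes called, and 5 higher and 3 lower in E5, with 6246 genes called. Errfi1, which encodes an inhibitor of EGFR, was at a mean of 140 CPM in WT and had a log2 fold change of -0.96 (edgeR quasi-likelihood adjusted p = 0.000134) in E3 and -0.90 (edgeR quasi-likelihood adjusted p = 0.000187) in E5. Ptprk, a receptor phosphatase gene, had 1.73 (edgeR quasi-likelihood adjusted p = 0.00013) in E5 and 0.25 (edgeR quasi-likelihood adjusted p = 0.346) in E3, where it passed without E3 replicate 3 at 0.47 (edgeR quasi-likelihood adjusted p = 0.00204). The Ptprk value in E3 was 0.05 without E3 replicate 1 (edgeR quasi-likelihood adjusted p = 0.859). Ptprg had -0.90 (edgeR quasi-likelihood adjusted p = 0.0325) in E3 and -0.61 without E3 replicate 3, and its call was lost without any 1 WT library, with only the 2 lines compared or with the replicate number as a block. In E5 Ptprg had -0.30 (edgeR quasi-likelihood adjusted p = 0.508), which passed with limma voom. Socs1, a cytokine signaling suppressor gene, had 0.74 (edgeR quasi-likelihood adjusted p = 0.0107) in E5 and lost its call without WT replicate 3. In E3 Socs1 had 0.38 (edgeR quasi-likelihood adjusted p = 0.114).

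The receptor tyrosine kinases outside the list, 22 genes of the EGFR, Eph and other families, gave a comparison. Of these, 11 were tested, with 4 higher and 2 lower in E3 and 4 higher and 2 lower in E5. Epha2 was lower in E3 (log2 fold change -0.87, edgeR quasi-likelihood adjusted p = 0.000184) and Ephb4 lower in E5 (-0.76, edgeR quasi-likelihood adjusted p = 0.000203). The E5 value of Epha2 was -0.24 (edgeR quasi-likelihood adjusted p = 0.118). It passed with limma voom, with only the 2 lines compared and without E3 replicate 3. The E3 value of Ephb4 was 0.05 (edgeR quasi-likelihood adjusted p = 0.723). Higher in E5 were Lmtk3, with a log2 fold change of 1.52, and Ephb6, with 0.97. In E3 the values were 0.73 and 0.57, and the Ephb6 call there was lost without WT replicate 2 or 3, E3 replicate 1 or any 1 E5 library and with only the 2 lines compared. The difference between the 2 lists was not tested.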

How the data were processed

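Raw counts per gene of the 9 libraries were used as deposited. By the submitters' processing notes, FastQC, Trimmomatic and STAR with the GRCm39 genome came before counting. Which counter, which strand setting and which annotation release were used is not given in the sources used here. All 3 lines were fitted together in edgeR (version 4.0.16, R 4.3.3) with TMM scaling after filterByExpr (at least 10 counts, 15 in total), by the quasi-likelihood test with Benjamini-Hochberg adjustment over all genes tested and a threshold of 0.05. An SE was taken as the size of the log2 fold change divided by the root of F. CPM per kb used the union of exons in GENCODE mouse release 39. Members past 2-fold in any comparison were described in full. From each list the 4 called genes with the largest change against WT and an average log2 CPM above 1 were named, with the ligands of the members described in full. Members and lists were chosen with earlier results of these data known. Ratios of E3 replicate 3 were taken after adding 0.5 CPM. The fit was tested on simulated data with the same spread per gene in every line and no outlying library. For E3 against WT, 75 of 98 2-fold and 92 of 97 4-fold changes were recovered, with 8 false calls among 14335 genes tested. The lines here differ in spread, so the simulation does not show how the fit performs with a library such as E3 replicate 3. Alternatives were DESeq2 (version 1.42.0), limma voom (version 3.58.1) with sample weights, other scalings and filters, only the 2 lines compared, the replicate number as a block and each library left out in turn.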

Additional observations from a re-analysis of the deposited data

Results flagged for a closer look

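Of the 17 tested members, 10 differed between the clones by the edgeR quasi-likelihood test, with a background of 31.9% of genes tested. The differences are given here as log2 fold change against WT in E5 minus that in E3. Pdgfrb differed by -4.14, with opposite calls in the 2 clones. Pdgfra differed by -1.52, with a call in E3 alone. Tyro3 differed by -0.61, Ryk by -0.53, Mertk by -0.53 and Ddr1 by -0.47. Ptk7 differed by -0.30, with the same direction in both clones. Styk1 differed by 0.37, Ddr2 by 0.79 and Flt3 by 1.86, the last with the same direction in both clones. The differences of Pdgfrb, Pdgfra, Tyro3, Ryk, Ddr1 and Flt3 passed the threshold in every alternative that gave a value, whereas those of Mertk, Ptk7, Styk1 and Ddr2 lost it in 10, 11, 6 and 4 alternatives. The Ddr2 difference was 0.52 and the Flt3 difference 2.47 without E3 replicate 3. These are the same values as in the comparison of the 2 KO clones above, since the WT level drops out of the difference. Since each KO is 1 clone, the genotype and the clone cannot be told apart in the values of either clone against WT.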

How the results depend on the processing

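Of 864 alternative values of the 17 members, 765 kept their direction and side of the threshold, 49 fell below it, 42 passed it and 8 reversed, none of the 8 being a call. Axl in E3 ranged from -0.0641 (without WT replicate 1) to 0.112 with 1 library left out, and was also below 0 without E3 replicate 1 (-0.0151) or 2 (-0.0448). Ror2 in E3 ranged from -0.0507 (without E3 replicate 1) to 0.140. Lmtk2 ranged from -0.472 to 0.0135 (without E3 replicate 3) in E3 and from -0.0345 (without WT replicate 1) to 0.0570 in E5, where it was -0.00526 with limma voom. Met between clones ranged from -0.0777 (without E3 replicate 3) to 0.566. Of 812 alternative values of Cd47 and the named list genes, chosen after seeing the data, 742 kept their side, 54 fell below the threshold, 16 passed it and none reversed. Csf1, Kitl and the marker genes were not among these. Members called in E5 against WT numbered 14 with limma voom and 9 with only the 2 lines compared, with 8575 and 6596 genes. Between clones, 6 members and 3122 genes were called with only the 2 lines compared. With at least 10 counts in every library, fewer genes were tested, Flt3 gave no value, past 2-fold members were 1 in E3 and 1 in E5, and past 2-fold genes were 828, 571 and 836 in E3, E5 and between clones. Leaving out 1 library gave 8 to 10 members called in E3, 2 to 8 in E5 and 6 to 13 between clones, 2875 to 6423, 1767 to 6246 and 3235 to 6555 genes called, 2 to 4, 1 to 2 and 3 to 3 members past 2-fold, and 1262 to 1583, 1040 to 1351 and 1488 to 1866 genes past 2-fold. With the replicate block, members called were 8 in E3, 4 in E5 and 6 between clones, with 3664, 2309 and 3887 genes. Deviations of same-numbered libraries from their line correlated at -0.16 to 0.04. With 3 libraries per line and E3 replicate 3 apart, this cannot decide whether the numbers pair the libraries. The length used moved the WT level per kb beyond 1 SD for 14 of 17 members. Causes of these shifts were not tested, other than fewer genes or libraries. Counts were few for the 19 untested members, and for Flt3 and Pdgfrb in the clone where each is lowest. The part of sequencing depth in this was not tested.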
